A study of Mus musculus with 5 samples.

Results

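The 9 genes described here encode basic leucine zipper (bZIP) transcription factors of the Maf family and the partners with which they pair on DNA: Maf, Mafa, Nrl, Maff, Mafg, Mafk, Bach1, Bach2 and Nfe2l2. They were chosen by name, as a family and its partners and not by a cutoff on measured values, from the 21887 protein-coding genes of assembled mouse chromosomes, and all 9 were found in the gene table. Every peak that overlapped a gene or lay within 100 kb of it was taken, which gave 99 peaks in windows that add up to 2.26 Mb. The chromatin came from bone marrow macrophages of C57Bl/6 mice and was precipitated with a c-Maf antibody (2 libraries) or with normal rabbit IgG, called the isotype control (2 libraries), and 1 input library served as the control for peak calling. The cell type is labelled M2, polarized in culture, but every title begins with M0, a conflict that the labels leave unsettled. Peak lists hold no expression values, so the macrophage label was not checked against markers. Numbers 3 and 4 occur once with each antibody, and the series' design text speaks of biological replicates. No label ties a number to an animal, so the spread given here is that between these libraries.

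Maf proteins bind DNA as dimers through a basic region and a leucine zipper. The large Maf proteins, among them c-Maf, MafA and Nrl, also carry an activation domain. The small ones, MafF, MafG and MafK, lack it and act largely through dimers with cap'n'collar (CNC) proteins such as Bach1, Bach2 and Nrf2, the product of Nfe2l2. These dimers recognise Maf recognition elements and the closely related antioxidant response elements. In macrophages c-Maf is known as a regulator of Il10. The question asked of the peak lists was whether the c-Maf antibody recovered sites around the gene of its own target, its relatives and their partners more than the isotype did.

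The c-Maf antibody lists held 23434 peaks in library 3 and 17620 in library 4, and the isotype lists held 58732 and 15568. The 4 libraries had between 21655683 and 22017759 tags after duplicate filtering, so they differed little in depth. Dividing the deposited pileup at a summit by the scaling that the headers imply returned whole tags for 100% of the peaks. A typical peak stood on few tags, with a median of 6 in both c-Maf antibody lists and of 4 (number 3) and 5 (number 4) in the isotype lists. The isotype list of number 3 was the only one with peaks of 3 tags, which made up 18.8% of it. Counts are therefore given per list and per 1000 listed peaks.

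Each of 3 genes, Maf, Maff and Bach2, had 1 region in its window that both c-Maf antibody libraries held and neither isotype library did, here called a c-Maf-only region. Across all protein-coding genes, 5.33% had such a region within 100 kb. None of the 9 genes had an isotype-only region, defined with the antibodies exchanged, against 2.44% of all genes. Of 96 regions in the windows after merging overlapping peaks, 93 belonged to 1 list alone. The other 3 were these c-Maf-only regions. The remaining 10 combinations of 2 or more lists, mixed pairs of a c-Maf antibody and an isotype library included, had 0 regions in the windows. Over all genes the mixed pairs were also uncommon, found within 100 kb of 1.55% to 4.84% of genes, and combinations of 3 or 4 lists near 0.361% to 0.567%, so for 9 genes a 0 is close to these shares. Per Mb, the windows held 1.33 c-Maf-only regions and windows of all protein-coding genes together held 0.206. At the rate of all windows 0.465 regions would fall into the 9 windows, and the count of 3 has an exact 95% Poisson interval of 0.619 to 8.77, which covers counting error only. The 9 genes were chosen with earlier results of these data known. The count of 3 is therefore not read as an excess over all genes. For isotype-only regions the same interval for the count of 0 reaches up to 3.69 (the one-sided limit is 3), and the rate in all windows would give 0.306. At a p-value of 1e-05 or smaller, or a q-value of 0.05 or smaller, 0 of the 3 remained, since the library 4 peak of each fell short of both. The library 3 peaks near Maf and in Bach2 passed both thresholds, and that of the Maff window passed the p-value alone. At 50% reciprocal overlap 1 region remained, that of the Maff window.

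The region near Maf, the gene of c-Maf itself, lay on chromosome 8 at 115650260 to 115650514 (mm10 throughout), 52.7 kb below the lower-coordinate end of the gene (115703253 to 115706894). It lay in no annotated gene, and no other protein-coding gene overlapped the window of Maf. The library 3 peak was 255 bp long and had 10 tags at its summit (exact Poisson interval 4.80 to 18.4), with a fold enrichment of 6.80 over the local input and a −log10 q of 3.34. The library 4 peak at 115650393 to 115650460 was 68 bp long and had 6 tags (2.20 to 13.1), with a fold enrichment of 4.48 and a −log10 q of 0.23. The summits were 32 bp apart, and the overlap of 68 bp made up 26.7% of the longer peak. The peak of library 3 was thus among the strongest 0.440% of its list, by p-value, while that of library 4 stood 30.4% from the top of its list, with a q-value above 0.05. The nearest isotype peaks were 8.36 kb away in library 3 and 13.5 kb away in library 4.

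The region in Bach2, which encodes a repressor best known from B and T lymphocytes, lay on chromosome 4 at 32570073 to 32570301. It was inside the gene (32238413 to 32586109), 15.8 kb from its upper end, and inside Bach2os, a long noncoding RNA gene that overlaps Bach2. Bach2 is listed on the plus strand, so the region lies towards the end of the gene. The library 3 peak had 12 tags (6.20 to 21.0), the most of any peak in the 9 windows, with a fold enrichment of 6.32 and a −log10 q of 3.23. The library 4 peak had 6 tags (2.20 to 13.1) and a fold enrichment of 3.46, and its −log10 q was 0. Its summit was 47 bp from that of library 3, and the overlap made up 41.1% of the longer peak. A c-Maf-only region inside the gene itself was thus found for 1 of the 9, against 0.946% of all genes. Bach2 is by far the longest of the 9 at 348 kb, followed by Bach1 at 34.4 kb. The share over all genes was not matched for gene length. The local input level at both summits, 1.00 scaled tags, was higher than at the regions of Maf (0.574 in library 3 and 0.546 in library 4) and Maff (0.498 in library 3 and 0.474 in library 4). The nearest isotype peaks were 30.1 kb away in library 3 and 261.0 kb away in library 4.

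The region near Maff, which encodes a small Maf protein, lay on chromosome 15 at 79328120 to 79328290, 18.3 kb below the gene (79346621 to 79359078). It was inside the neighbouring gene Pla2g6, which encodes a calcium-independent phospholipase A2 and is listed on the minus strand, between 81 and 251 bp past its start of transcription. The library 3 peak had 7 tags (2.81 to 14.4) and a fold enrichment of 5.20. The library 4 peak had 5 tags (1.62 to 11.7) and a fold enrichment of 4.02. Neither passed a q-value of 0.05, with a −log10 q of 0.87 in library 3 and 0 in library 4. The summits were 31 bp apart, the overlap made up 52.0% of the longer peak, and the nearest isotype peak, of library 4, was 5.78 kb away. The region was therefore much nearer to the start of Pla2g6 than to Maff.

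**Figure D1:**
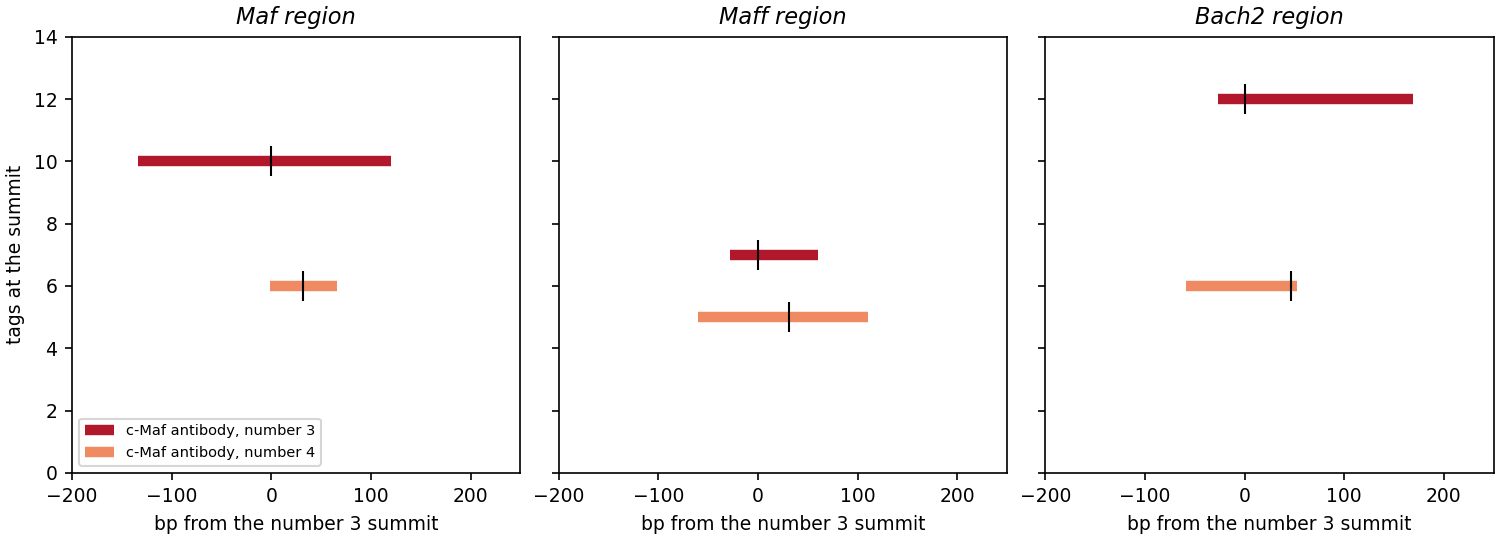
The 3 c-Maf-only regions near Maf, Maff and Bach2. The x axis gives bp from the summit of the library 3 peak, and the y axis the tags at the summit; each bar spans 1 peak and its tick marks the summit. In every panel the bars overlap and library 3 has more tags, 10 against 6, 7 against 5 and 12 against 6, with overlapping counting intervals.

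The deposited files give no sequence of these regions. The listed start nearest to the Bach2 region, that of Bach2os, was 1361 to 1589 bp away and is not printed here. The starts of 2 genes are printed, those of Pla2g6 and Mafg. That of Pla2g6 lies beside the region in the Maff window. That of Mafg lies near none of these regions, but Mafg is the one member with a peak within 1 kb of its listed start. Both run from 250 bases before to 50 bases after the start of transcription (RefSeq, GRCm38.p6), are written 5′ to 3′ on the minus strand, at chr15:79328322-79328621 for Pla2g6 and chr11:120633498-120633797 for Mafg, and have capitals where a searched motif was found.
Pla2g6: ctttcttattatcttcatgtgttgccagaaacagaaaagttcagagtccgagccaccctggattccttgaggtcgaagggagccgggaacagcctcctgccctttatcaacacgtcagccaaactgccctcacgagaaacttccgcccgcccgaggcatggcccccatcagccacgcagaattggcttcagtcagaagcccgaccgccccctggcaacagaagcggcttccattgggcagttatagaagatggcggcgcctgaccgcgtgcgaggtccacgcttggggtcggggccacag
Mafg: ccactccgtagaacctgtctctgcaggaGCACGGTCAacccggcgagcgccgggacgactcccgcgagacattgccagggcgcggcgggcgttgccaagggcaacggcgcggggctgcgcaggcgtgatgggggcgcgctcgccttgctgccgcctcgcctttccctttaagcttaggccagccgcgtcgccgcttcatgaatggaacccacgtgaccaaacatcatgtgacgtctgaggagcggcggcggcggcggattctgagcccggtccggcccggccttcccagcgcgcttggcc
No c-Maf antibody peak overlaps these 2 sequences. The Maff-window region begins 81 bp past the Pla2g6 start, and the Mafg peak spans 428 to 513 bp past the Mafg start.

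The motifs were searched on both strands in the listed starts of the 7 members that had one, 9 starts in all. They were TGCTGA, the half-site of the Maf recognition element, TGACTCA, the AP-1 core, and TGACNNNGC, the core of the antioxidant response element. In a full Maf recognition element the half-site and the AP-1 core overlap, and the antioxidant core shares its first 4 letters with the AP-1 core. TGCTGA was found in 2 of the 9 starts, those of Mafk and Bach1, against 19.5% of all 32851 listed starts. TGACTCA was found in 0 of 9, against 5.2%. TGACNNNGC was found in 4 of 9, those of Maff, Mafg, Mafk and Nfe2l2, against 12.4%. The match in the Mafg start, capitalised above, reads GCACGGTCA, on the opposite strand, and has its first base at position -222 relative to the start of transcription. The Pla2g6 start had no match to any of the 3.

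The windows of all 9 genes together held 25 peaks in c-Maf antibody library 3 and 20 in library 4, against 44 in isotype library 3 and 10 in library 4. Relative to list length, this was 1.07 and 1.14 peaks per 1000 listed peaks in the c-Maf antibody libraries and 0.749 and 0.642 in the isotype libraries. Both c-Maf antibody libraries were above both isotype libraries. The means differed by 0.405 per 1000 (pooled SD 0.0634, n = 2 each), and the exact permutation test over libraries gave p = 0.333 (two-sided), the smallest value that 2 against 2 libraries allow. With windows of 200 kb the values were 1.80 in the c-Maf antibody libraries and 1.67 in the isotype libraries on average, a difference of 0.132 (exact permutation p = 1).

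Set against the density of the same list in the windows of all protein-coding genes, the 9 windows held 1.19 and 1.32 times as many peaks per Mb in c-Maf antibody libraries 3 and 4, and 0.880 and 0.751 times as many in isotype libraries 3 and 4. The exact Poisson intervals of the 4 counts were 16.2 to 36.9 and 12.2 to 30.9 in c-Maf antibody libraries 3 and 4, against 32.0 to 59.1 and 4.80 to 18.4 in isotype libraries 3 and 4. The counts that the density of all gene windows would give, 21.0 and 15.2 in c-Maf antibody libraries 3 and 4 and 49.996 and 13.3 in isotype libraries 3 and 4, lay inside the intervals. At this number of peaks no library's count could be told from the density of its own list near other genes.

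**Figure D2:**
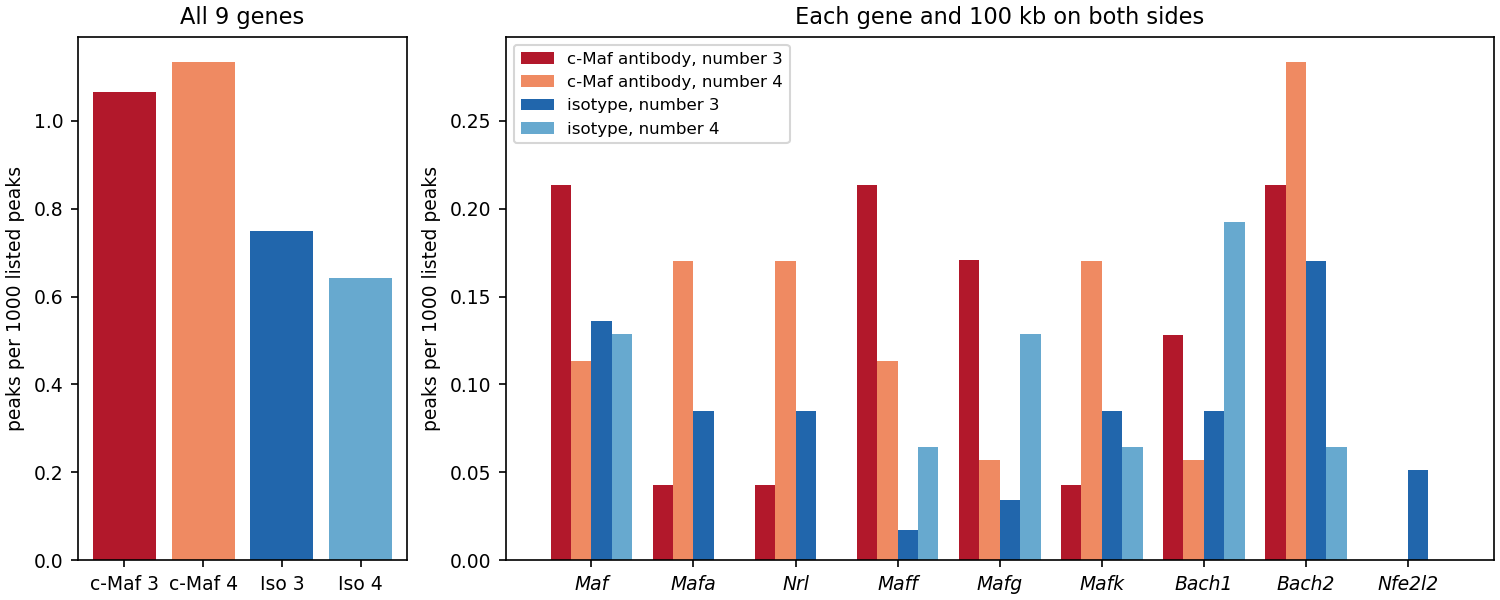
Peaks per 1000 listed peaks (y axes) in the windows of all 9 genes together (left) and of each gene (right), by library. Both c-Maf antibody libraries, at 1.07 and 1.14, stand above both isotype libraries, at 0.749 and 0.642, in the left panel; single genes vary more between libraries of 1 antibody, and Nfe2l2 has no c-Maf antibody peak.

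By gene, both c-Maf antibody libraries lay above both isotype libraries for 2 of 9, Maff and Bach2, against 17.7% of all genes. None of the 9 had both below, against 14.5%. A c-Maf antibody peak in both libraries was found for 8 of 9 genes, against 64.2% of all genes, and an isotype peak in both for 6 of 9, against 65%. With windows of 200 kb both counts were 8, against 88.1% of all genes for the c-Maf antibody and 85.4% for the isotype. The median difference over the 9 genes was 0.0325 per 1000 listed peaks, and over all protein-coding genes it was 0.00715.

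Among the large Maf genes, the window of Maf held 5 and 2 peaks in c-Maf antibody libraries 3 and 4, against 8 and 2 in isotype libraries 3 and 4. Per 1000 listed peaks these were 0.213 and 0.114 in the c-Maf antibody libraries, against 0.136 and 0.128 in the isotype libraries. The groups overlapped, and the difference of 0.0311 (pooled SD 0.0501) turned to -0.0278 with windows of 50 kb, -0.0137 with 200 kb and -0.0188 without c-Maf antibody library 3. All 17 lay outside the gene. The peaks nearest to it were 38.1 and 52.8 kb away in c-Maf antibody libraries 3 and 4, and 33.5 and 21.1 kb away in isotype libraries 3 and 4. Both isotype libraries thus came closer to the gene than either c-Maf antibody library. Peaks below the gene included 3 from c-Maf antibody libraries in Gm39256, a long noncoding RNA gene, which also held 4 peaks of isotype library 3 and 1 of library 4. In that gene, the c-Maf antibody library 3 peak at 115641186 to 115641267 lay within 1 kb of isotype library 3 peaks on both sides. These were at 115640964 to 115641016 and 115641851 to 115641903. Outside that gene, the c-Maf antibody library 3 peak at 115665050 to 115665112 lay within 1 kb of an isotype library 3 peak at 115665768 to 115665820. No other c-Maf antibody peak in the Maf window lay so near an isotype peak. The c-Maf antibody peaks around Maf had 4 to 10 tags, and the isotype peaks 3 to 6.

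Mafa, which encodes an activator of the insulin gene in pancreatic beta cells, and Nrl, which encodes a regulator of rod photoreceptors, had the same counts. Each had 1 and 3 peaks in c-Maf antibody libraries 3 and 4, against 5 and 0 in isotype libraries 3 and 4. None lay inside either gene, and for none was Mafa or Nrl the nearest coding gene. In the Mafa window, 3 of the 4 c-Maf antibody peaks lay inside Zc3h3 and 1 inside Top1mt, each with 4 to 6 tags. The peak closest to Mafa was 16.4 kb away, from library 4. In the Nrl window the 4 c-Maf antibody peaks had 6 or 7 tags and all lay below the gene, from 10.6 to 77.1 kb away. One was inside Carmil3 and another inside Dhrs4. The 5 isotype peaks near Nrl had 3 or 4 tags and all lay above the gene, the nearest 44.0 kb away. The difference per 1000 listed peaks, 0.0639 with a pooled SD of 0.0767 for each of the 2 genes, turned to -0.0549 for Nrl with windows of 200 kb.

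The small Maf genes differed among themselves. The window of Maff held 5 and 2 peaks in c-Maf antibody libraries 3 and 4, against 1 each in the isotype libraries. Per 1000 listed peaks these were 0.213 and 0.114 in the c-Maf antibody libraries, against 0.0170 and 0.0642 in the isotype libraries. The groups did not overlap, with a difference of 0.123 and a pooled SD of 0.0552. That difference fell to 0.0427 for peaks inside the gene (0 kb) and to 0 at a q-value of 0.05 or smaller. Besides the shared region in Pla2g6, library 3 had 2 peaks inside Maff, on chromosome 15 at 79354774 to 79354836 and at 79358575 to 79358659, with 6 tags each and fold enrichments of 4.32 and 4.35. Library 4 had none inside Maff. Its other peak, 32.9 kb above the gene, lay in Tmem184b, as did the single peak of isotype library 3.

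Mafg had 4 and 1 peaks in c-Maf antibody libraries 3 and 4, against 2 each in the isotype libraries, and the groups overlapped per 1000 listed peaks. The difference of 0.0325 (pooled SD 0.0740) turned to -0.0321 at equal list lengths, -0.0245 without c-Maf antibody library 3 and -0.0147 without isotype library 3. The library 4 peak was inside the gene on chromosome 11 at 120633034 to 120633119, with 6 tags and a fold enrichment of 3.46, and is the one whose distance from the Mafg start was given with the sequences. No other list had a peak inside Mafg. Its window is crowded, with 19 other coding genes, and the remaining c-Maf antibody peaks, all of library 3, lay 31.5 to 83.9 kb away, nearest to Ppp1r27, Alyref or Lrrc45.

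Mafk had 1 and 3 peaks in c-Maf antibody libraries 3 and 4, against 5 and 1 in isotype libraries 3 and 4. The one peak inside Mafk came from isotype library 3, on chromosome 5 at 139797547 to 139797599, with 4 tags. The strongest c-Maf antibody peak, 18.9 kb above the gene at 139821542 to 139821609, had 7 tags and a fold enrichment of 4.94 and came from library 4 alone. The difference of 0.0318 per 1000 (pooled SD 0.0646) turned to -0.00851 for peaks inside the gene (0 kb), -0.118 with windows of 200 kb and -0.0320 without c-Maf antibody library 4. Inside the small Maf genes, no c-Maf antibody peak was found in both libraries.

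Of the CNC partner genes, Bach2 held the most peaks, in the longest window (548 kb, of which the gene takes 348 kb). There were 5 each in c-Maf antibody libraries 3 and 4, against 10 and 1 in isotype libraries 3 and 4. Per 1000 listed peaks these were 0.213 and 0.284 in the c-Maf antibody libraries, against 0.170 and 0.0642 in the isotype libraries. The groups did not overlap, with a difference of 0.131 and a pooled SD of 0.0636. That difference stayed positive under each alternative but fell to 0.0642 at equal list lengths. It was 0.359 at a p-value of 1e-05 or smaller and 0.697 at a q-value of 0.05 or smaller. All 5 peaks of c-Maf antibody library 3 were inside the gene, with 5 to 12 tags, whereas 1 of the 5 in library 4 was, the shared one. Isotype library 3 also had 6 peaks inside Bach2, with 5 or 6 tags each, and isotype library 4 had none. Of these, the peak at 32249117 to 32249177 lay within 2 kb of a peak of c-Maf antibody library 3 at 32250996 to 32251061, which had 8 tags and a fold enrichment of 5.18. Another isotype peak, at 32469888 to 32469967, lay within 1 kb of a c-Maf antibody library 3 peak of 6 tags at 32470842 to 32470904. The other c-Maf antibody peak of 8 tags in the gene, at 32531553 to 32531690, had a fold enrichment of 5.28.

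Bach1, which encodes a haem-sensitive repressor of antioxidant genes, had 3 and 1 peaks in c-Maf antibody libraries 3 and 4, against 5 and 3 in isotype libraries 3 and 4. Its difference was negative, at -0.0465 per 1000 listed peaks, with a pooled SD of 0.0645, and turned to 0.00284 for peaks inside the gene, 0.0134 with windows of 50 kb and 0.00725 without isotype library 4. The single c-Maf antibody peak inside the gene, of library 4, lay on chromosome 16 at 87720095 to 87720154 and had 7 tags and a fold enrichment of 5.36. A peak of isotype library 3 lay directly beyond its end, at 87720158 to 87720210, with 3 tags, and the same library had 2 further peaks inside the gene. The peaks of the 2 antibodies at that place lay side by side without overlapping.

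Nfe2l2, which encodes Nrf2, the activator of the antioxidant response, was the one member with no c-Maf antibody peak in its window. The nearest were 193.9 kb away in library 3 and 276.9 kb away in library 4. Isotype library 3 had 3 peaks in the window, the nearest 7.35 kb from the gene, and isotype library 4 had 0. In each c-Maf antibody library the other 8 genes had a peak in the window, against 83.8% of all genes in library 3 and 73.5% in library 4. In isotype library 3 all 9 genes had one, against 95.2% of all genes, and in isotype library 4 it was 6 of 9, against 66.8%.

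**Figure D3:**
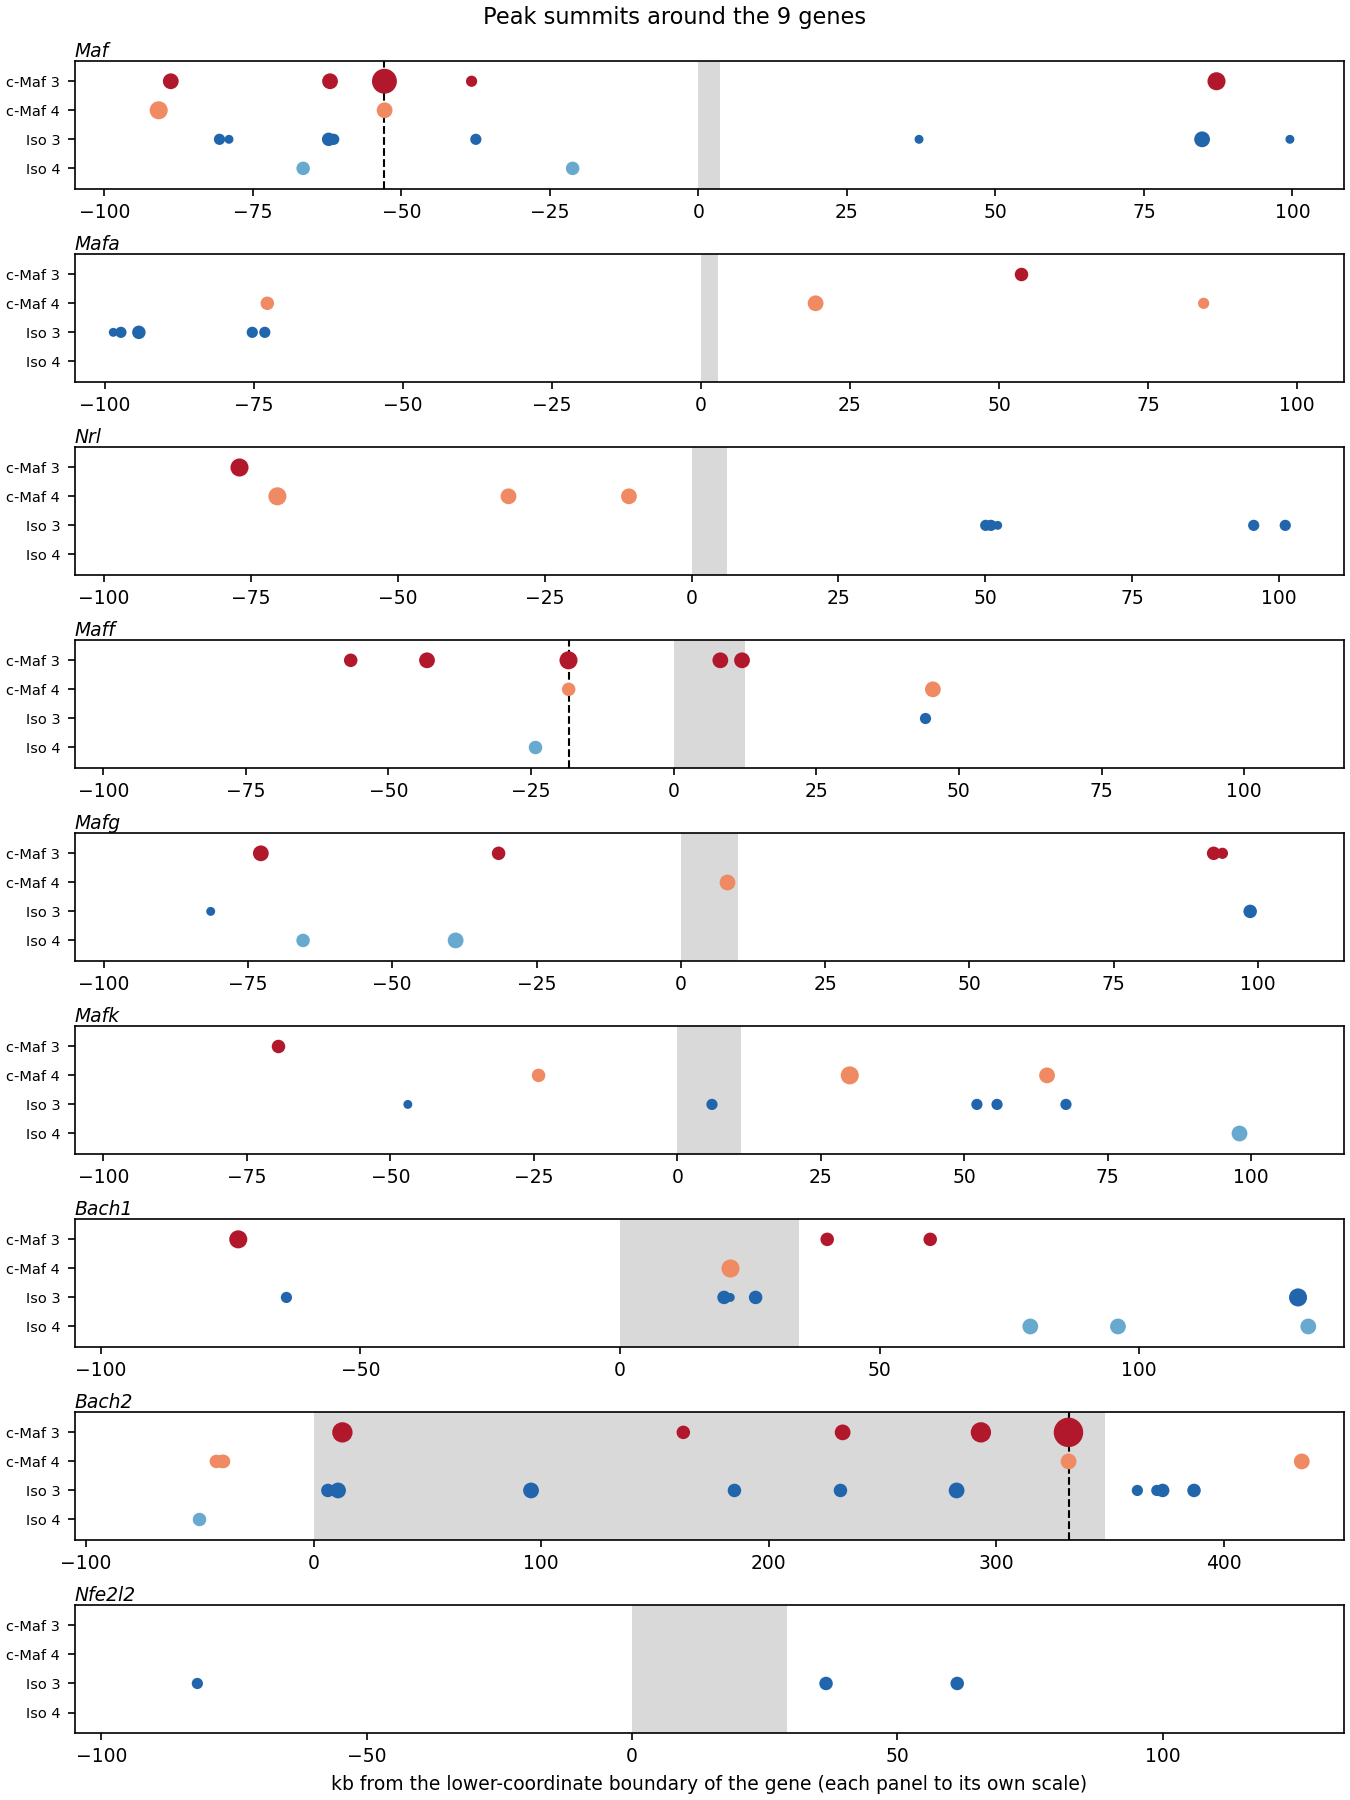
Peak summits of the 4 libraries (rows) around each gene. The x axis gives kb from the lower-coordinate boundary of the gene, the grey band is the gene, the diameter of a dot is in proportion to the tags at the summit, and a dashed line marks a c-Maf-only region. Each dashed line stands at the middle of its region. The near edges of the regions lie 52.7 kb below Maf and 18.3 kb below Maff, and the region of Bach2 is inside the gene. The Nfe2l2 panel has 3 dots, all of isotype library 3.

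A c-Maf antibody peak lay inside 4 of the 9 genes, Maff, Mafg, Bach1 and Bach2, against 30.7% of all genes. An isotype peak lay inside 3 of the 9, Mafk, Bach1 and Bach2, against 37.8%. Each antibody had 10 peaks inside members, out of 45 in the windows for the c-Maf antibody and 54 for the isotype. For 22 of the 45 c-Maf antibody peaks and 25 of the 54 isotype peaks the member was the nearest coding gene. That held for all 7 c-Maf antibody peaks around Maf and for 9 of 10 around Bach2, but for 0 of 4 around each of Mafa, Nrl and Mafk.

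Tags at the summits of window peaks were close to those of whole lists. The median was 6 tags in both c-Maf antibody libraries, as in their whole lists, and 4 (number 3) and 5.5 (number 4) in the isotype libraries. Peaks of 7 or more tags numbered 8 and 4 in c-Maf antibody libraries 3 and 4, and 1 and 0 in isotype libraries 3 and 4. The whole lists differed in the same direction, with medians of 6 in both c-Maf antibody lists and 4 and 5 in isotype lists 3 and 4. The share of each whole list with 7 or more tags was not counted. These counts are therefore not read as a feature of the windows. The single isotype peak of that height lay 96.2 kb above Bach1. Peaks that reached a q-value of 0.05 numbered 2 in c-Maf antibody library 3, the shared ones near Maf and in Bach2, and 0 in the other 3 libraries. In the whole lists 3.06% and 2.87% of c-Maf antibody peaks and 0.415% and 2.62% of isotype peaks of numbers 3 and 4 reached that level. Peaks in the windows were 60 to 255 bp long for the c-Maf antibody and 53 to 134 bp long for the isotype, and the longest was the library 3 peak near Maf. The shortest peak of each library equalled the fragment length in its file header. That length was 63 and 60 bp in c-Maf antibody libraries 3 and 4, and 53 and 56 bp in isotype libraries 3 and 4. The lower ends are therefore not read as a difference between antibodies.

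**Figure D4:**
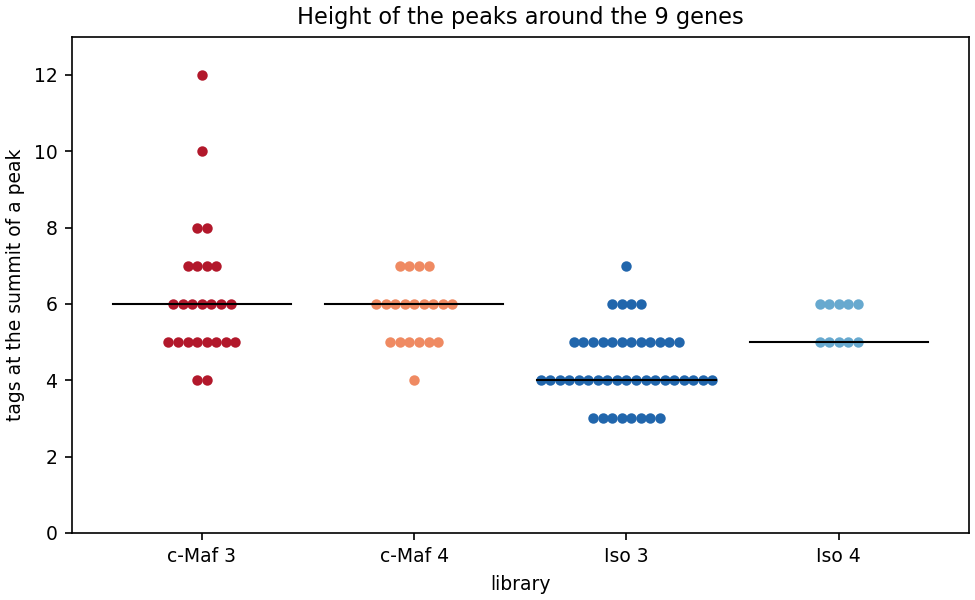
Tags at the summit (y axis) of each peak in the 9 windows, by library (x axis); each dot is 1 peak and the black line is the median of the whole list. The 2 dots at 10 and 12 tags in c-Maf antibody library 3 are the peaks near Maf and in Bach2, and no isotype dot lies above 7.

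Related genes outside the 9 were counted the same way. Of 3 further CNC genes, Nfe2, Nfe2l1 and Nfe2l3, 0 had a region of both c-Maf antibody libraries alone in the window. Of 18 other bZIP genes, 3 had a c-Maf-only region, Jund, Fos and Cebpe, and of 20 genes of the antioxidant response 2 had one, Gclm and Fth1, beside 5.33% of all genes. No gene of the 3 lists had an isotype-only region, beside 2.44% of all genes. With so few genes a list, none of these counts is read as a difference from all genes. Near Fos, which encodes a subunit of AP-1, the region lay on chromosome 12 at 85455096 to 85455276, 18.6 kb from the gene, with 12 tags in c-Maf antibody library 3 and 8 in library 4. Fos was its nearest coding gene. The regions counted for Jund and Cebpe lay 37.2 to 87.3 kb away and nearest to Ssbp4 and Slc7a8. Gclm encodes a subunit of the enzyme that makes the glutathione precursor, and its region was 34.1 kb away and nearest to Dnttip2. Fth1 encodes the ferritin heavy chain, and its region was 40.5 kb away and nearest to Rab3il1. By the median difference per 1000 listed peaks, the lists stood at -0.0142 for the CNC genes, 0.0202 for other bZIP genes and 0.0285 for antioxidant genes, beside 0.0325 for the 9 members and 0.00715 for all genes.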

How the data were processed

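Peaks came from 4 deposited lists, 1 per antibody library. Per the file headers, the authors called them with MACS 2.1.1.20160309 at a p-value of 0.01 against the number 4 input, with 1 tag kept per position and the human genome size. The submitters' processing notes name mm10, FastQC, MACS2 and MACS 1.4.2, with the aligner not given in the sources used here. Per the file headers, each peak has a pileup signal, a length, a fold enrichment (ratio of pileup to local input) and −log10 p and q values. These are the authors' own values and were used within a list. The local input level was derived from pileup and fold enrichment, taking 1 as added to both.

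Genes were those of the RefSeq table of GRCm38.p6, the coordinates of mm10, as spans without exons. Windows were extended by 100 kb. Peaks overlapping by at least 1 bp were merged. Tags at a summit are the pileup divided by the scaling of library to input. Densities were compared by an exact permutation test over 4 libraries, and counts have exact 95% Poisson intervals. Scripts used Python 3.11.15, pandas 2.3.3 and scipy 1.17.1 and were tested on simulated lists with planted regions. The 9 genes, all of which are reported, and the related lists were chosen with earlier results of these data known. Of the related genes, 1 is not reported here, and its list is given without it. Peaks named are those inside a gene, the nearest and the highest per gene, and those in regions held by 2 or more lists; a few others were named after their values were seen. Depth was 21370300 tags for the input. Alternatives changed the window, the peak threshold, the list length, the overlap rule and the libraries included.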

Additional observations from a re-analysis of the deposited data

How the results depend on the processing

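The c-Maf antibody libraries kept a higher mean number of peaks per 1000 listed peaks than the isotype libraries under each alternative. The mean was from 0.132 higher with windows of 200 kb to 1.39 higher at a q-value of 0.05 or smaller. At that q-value 2 peaks remain, both of c-Maf antibody library 3. Leaving out a library gave 0.352 to 0.459. In the genes alone (0 kb) the difference was 0.149 (exact permutation p = 0.667). With windows of 200 kb, in the genes alone and at that q-value, the c-Maf antibody libraries no longer both stood above both isotype libraries. No design of this size can pass 0.05. c-Maf-only regions in the windows numbered 3 at windows of 200 kb, equal list lengths, autosomes and X alone, summits within 200 bp and at least 4 tags (the last chosen after the data were seen), 2 (Maff and Bach2) at 50 kb, 1 (Bach2) in the genes alone (0 kb), 1 (Maff) at 50% reciprocal overlap, and 0 at a p-value of 1e-05 or a q-value of 0.05 or smaller. Stricter settings keep fewer peaks by construction. When libraries were left out singly, c-Maf-only regions came to between 3 and 25 and isotype-only ones to between 0 and 44, because 1 remaining list of an antibody needs no other list to hold the region. Without c-Maf antibody library 3 there were 20 c-Maf-only regions, without library 4 there were 25, and without isotype library 3 or 4 there were 10 or 44 isotype-only regions. Genes with a c-Maf antibody peak in both libraries numbered 1 in the genes alone, 4 with windows of 50 kb, 1 at the p-value of 1e-05 and 0 at the q-value of 0.05, against 8 with windows of 200 kb, 7 at equal list lengths and 8 with any library left out. Those with an isotype peak in both numbered 0, 3, 1 and 0 under the first 4 of these settings, 8 with windows of 200 kb, 4 at equal list lengths and 6 to 9 with 1 left out. Among all genes, the c-Maf antibody shares were 9.93% in the genes alone, 39.3% at 50 kb and 88.1% at 200 kb. They were 6.28% at the p-value of 1e-05, 1.03% at the q-value of 0.05 and 52.5% at equal list lengths. The isotype shares were 11.3% in the genes alone, 42.5% at 50 kb and 85.4% at 200 kb. They were 7.52% at that p-value, 0.366% at that q-value and 46.5% at equal list lengths. Leaving out a library of the other antibody cannot change such a count of genes. With 1 of its own left out, the remaining list alone decides. The share of all genes then rose to 73.5% or 83.8% for the c-Maf antibody and 66.8% or 95.2% for the isotype. The counts with a library left out are therefore no check on these results. Of 108 values for single genes under an alternative, 14 moved by more than the pooled SD between libraries. The 108 include values with a library left out. With 2 libraries per antibody these cannot move by more than that SD, even where the sign turned, so they are no check here. With the number as a replicate block the mean difference was 0.405 (exact permutation p = 0.5, the smallest possible), from 0.318 within number 3 and 0.493 within number 4; no label says that a number pairs libraries, and 2 pairs are too few to show it. The 3 c-Maf-only regions rest on 5 to 12 tags at each summit, and depth was not varied.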
